A study of Mus musculus with 5 samples.

Results

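The clustered protocadherins are a family of cell-surface cadherins encoded in 3 neighbouring gene arrays on mouse chromosome 18, named alpha, beta and gamma. Members were chosen by gene symbol alone, as every gene of the deposited table whose symbol starts with Pcdha, Pcdhb or Pcdhg. This gave 57 of the 24100 listed genes, of which 14 belonged to the alpha cluster, 21 to the beta cluster and 22 to the gamma cluster. The family itself was selected on its counts in the same comparison of quiescent stem cells with melanocytes, so the calls given below describe the members and support nothing further.

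Cells were sorted from mouse back skin, and their poly-A RNA was sequenced without strand information. One group was 2 libraries of quiescent melanocyte stem cells (McSC), the resting pigment cells of the hair follicle, taken in the second telogen at postnatal days 60 and 62 from Dct-eGFP+ mice, with 4 males pooled per library. The other was 3 libraries of melanocytes from follicles in full anagen, the growth phase, at postnatal day 10, from Dct-EGFP+ Lef1-RFP+ mice, with 3, 2 and 4 males pooled in replicates 1 to 3. All mice were of a mixed CD1 and C57Bl6J background. Every library was gated on the Dct reporter and medium to low integrin α6, and against Sca1, CD34, CD31, CD45 and CD140a. Melanocytes were also required to carry the Lef1 reporter and c-Kit. The groups therefore differed at once in gate, age, reporter strain and stage of the hair cycle, which cannot be told apart. In bulk samples, fewer cells of a type and less RNA per cell cannot be told apart either.

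Clustered protocadherins form homophilic contacts between cells and are best known from neurons, where each cell shows its own combination of isoforms and uses it to tell its own processes from those of other cells. Each alpha and gamma isoform starts from a variable exon with its own promoter, which is spliced to constant exons shared by the whole cluster, whereas beta genes have no constant exons. Promoters are chosen through CTCF and cohesin and are silenced by DNA methylation. The last genes of the alpha and gamma arrays, called C-type, differ from the others in that many neurons express them without a choice among alternatives. Melanocytes arise from the neural crest, the same embryonic source as peripheral neurons and glia.

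On GRCm38 the alpha genes lie at chromosome 18, 36930285 to 37188897, the beta genes at 37264998 to 37521419, and the gamma genes at 37661775 to 37841873. In the GENCODE M21 models between 36.4% and 54.9% of the exon bases of an alpha gene (Pcdha10 had no model there) are also exon bases of other members, and between 13.4% and 45.5% of those of a gamma gene, against 0% for every beta gene. How the authors' counts divided reads of these shared exons is not given in the sources used here, so the split between alpha genes and between gamma genes is uncertain, while that between beta genes rests on their own exons. A readthrough gene of the table that joins Pcdha7 to the gamma constant exons, Gm38667, read 8.90 and 14.05 CPM (counts per 1000000, with library sizes scaled by the TMM method) in the quiescent McSC libraries and 10.01, 9.08 and 11.8 CPM in the melanocyte libraries. Pcdha7 itself read 0.0642 and 0 CPM against 0.123, 0 and 0 CPM.

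Total counts per library ran from 17512381 in melanocyte replicate 3 to 124530834 in quiescent McSC replicate 2, and 3 counts corresponded to 0.160 CPM in the shallowest and 0.0268 CPM in the deepest library. The lineage markers Dct, Tyrp1, Pmel, Mlana, Tyr, Mitf, Sox10, Kit and Pax3 summed to 20250 and 21680 CPM in quiescent McSC and to 3020, 17660 and 19250 CPM in melanocyte replicates 1 to 3. Of these 9 genes 4 were higher in quiescent McSC, where 26.2% of all tested genes were, and 5 were not called. Melanocyte replicate 1 stood apart by its low lineage sum and by fibroblast and dermal papilla markers, which summed to 6091 CPM there, 2545 and 2263 CPM in the other melanocyte libraries, and 156 to 182 CPM in quiescent McSC. Of these 14 fibroblast markers 13 were higher in melanocytes, where 29.1% of all tested genes were, and 1 was not called. None was without counts in quiescent McSC. Even so, Mfap5, Twist2 and Lum, with 2, 12 and 19 counts there, passed the filter on low counts only through the melanocyte libraries. That favours a difference in that direction, so their calls are descriptions.

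Toward quiescent McSC, 19 of the 44 members with enough counts to be tested were called higher, where 26.2% of all 16953 tested genes were. Toward melanocytes, 1 member was called higher, where 29.1% of all tested genes were. The other 24 tested members were not called, and the remaining 13 of the 57, of which 12 are alpha genes, did not pass the filter on low counts. A call is an adjusted p under 0.05 in edgeR's quasi-likelihood test with Benjamini-Hochberg adjustment over all tested genes (55.4% were called in either direction). The median log2 fold change (melanocyte minus quiescent McSC) was -0.89 over the 44 members and 0.03 over all tested genes. Of the 19 called toward quiescent McSC 13 were gamma genes outside the C-type and 6 were beta genes. The beta gene Pcdhb2 passed the filter only through the quiescent McSC libraries. The gamma C-type genes stood at like levels in both groups, and the alpha genes were close to the detection limit in every library.

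**Figure D1:**
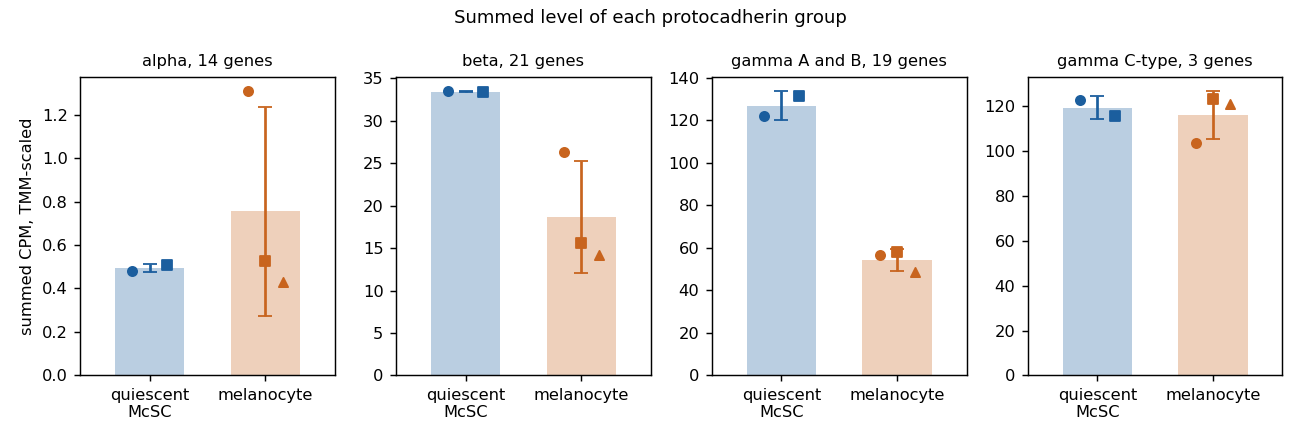
Summed CPM (TMM-scaled, vertical axes from 0) of the alpha, beta, gamma A and B, and gamma C-type genes in quiescent McSC (blue, 2 libraries) and melanocytes (orange, 3 libraries); bars are means, error bars SD, and circles, squares and triangles replicates 1, 2 and 3. The gamma A and B sum was 122 and 132 CPM in quiescent McSC and 48.6 to 58.2 CPM in melanocytes, while the C-type sums overlapped.

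Summed over the 19 gamma A and gamma B genes, which are the alternative isoforms of the cluster, quiescent McSC reached 122 and 132 CPM and melanocytes 56.6, 58.2 and 48.6 CPM. The mean was 2.33-fold higher in quiescent McSC (127 ± 6.75, SD, n = 2, against 54.4 ± 5.12, n = 3), and the groups were far apart relative to the spread of their libraries. The C-type genes Pcdhgc3, Pcdhgc4 and Pcdhgc5 summed to 123 and 116 CPM in quiescent McSC and to 104, 123 and 121 CPM in melanocytes, ranges that overlap. The difference of the C-type sums on the log2 scale was -0.04, and it was 0.18 with library size as the only scaling, a setting that moved the median of all tested genes from 0.03 to 0.26. Relative to that median the C-type sum stood slightly low under both scalings. The summed gamma A and B difference was -1.22, and -0.998 with library size only.

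Pcdhgc3 was by far the most abundant member. It read 121 and 114 CPM in quiescent McSC and 102, 121 and 120 CPM in melanocytes, and the lowest and the highest of these 5 values both came from the melanocyte group. Its means were 118 ± 4.93 and 114.5 ± 11 CPM, with a log2 fold change of -0.04 ± 0.12 (SE), not called (edgeR adjusted p = 0.786). The direction of so small a difference was not fixed: it was 0.177 with library size only and 0.041 without melanocyte replicate 1. Per kilobase of exon, the level of Pcdhgc3 was 25.1 CPM in quiescent McSC against 24.4 CPM in melanocytes. The next gamma gene, Pcdhgb6, had 4.38 and 1.85 CPM per kilobase.

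The other C-type genes of the cluster were near 1 CPM in all libraries. Pcdhgc4 read 0.706 and 0.785 CPM in quiescent McSC and 0.986, 0.777 and 0.588 CPM in melanocytes. Pcdhgc5 read 0.802 and 0.482 CPM against 0.814, 0.762 and 0.428 CPM. In both genes the melanocyte libraries spanned the quiescent McSC values, and the log2 fold changes were 0.09 ± 0.39 and 0.10 ± 0.47. edgeR, DESeq2 and limma-voom each called 0 of the 3 gamma C-type genes, and 0 had an unadjusted p under 0.05 in any of these tools.

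**Figure D2:**
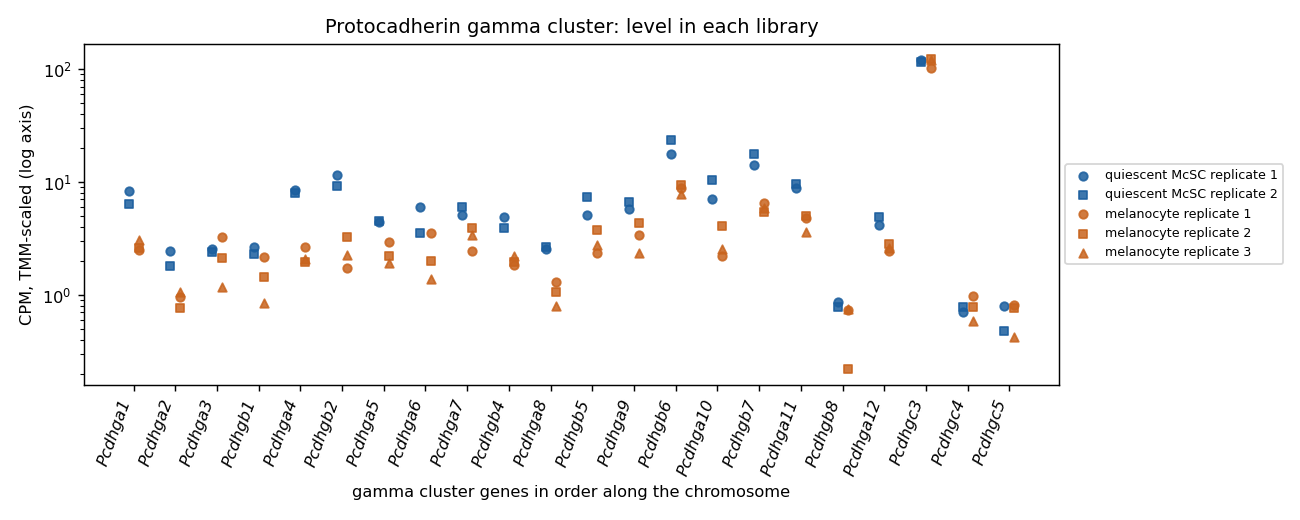
Level of each gamma gene (CPM, TMM-scaled, log axis) in order along the chromosome, with 1 point per library; blue is quiescent McSC, orange melanocyte, and the symbol shape gives the replicate. Blue points lie above orange points for 17 of the 19 gamma A and B genes, whereas for the 3 C-type genes at the right end the colours overlap.

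Of the 19 gamma A and B genes, all of which passed the filter, 13 were called higher in quiescent McSC and 6 were not called. The share of all tested genes called in that direction was 26.2%. DESeq2 and limma-voom each called 15. In the other direction edgeR, DESeq2 and limma-voom called 0 and had 0 at an unadjusted p under 0.05. All 19 had a negative log2 fold change, from -0.16 to -2.09 with a median of -1.07. In 17 of the 19 every melanocyte library was below every quiescent McSC library, an arrangement found in 36.4% of all tested genes. The counts divided into 8 of 12 gamma A genes and 5 of 7 gamma B genes. Without either quiescent McSC library the 13 calls in the gamma cluster became 6.

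The largest differences in the cluster were those of Pcdhgb2, Pcdhga4 and Pcdhga10, which encode recognition isoforms of the gamma B and gamma A types. Pcdhgb2 read 11.5 and 9.24 CPM in quiescent McSC and 1.73, 3.28 and 2.25 CPM in melanocytes (log2 fold change -2.09 ± 0.33, edgeR adjusted p = 0.00284). Pcdhga4 read 8.47 and 8.03 CPM against 2.64, 1.95 and 2.08 CPM (-1.89 ± 0.26, edgeR adjusted p = 0.00153). These neighbouring genes were lower in all melanocyte libraries by 4.29-fold and 3.71-fold in their means. Pcdhga10 read 7.09 and 10.51 CPM against 2.22, 4.03 and 2.57 CPM (-1.57 ± 0.35, edgeR adjusted p = 0.0104). Its groups were apart as well, but its call was lost without quiescent McSC replicate 2 (edgeR adjusted p = 0.0865).

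By mean CPM over both groups, the most abundant gamma A and B genes were Pcdhgb6, Pcdhgb7 and Pcdhga11, which lie close together toward the C-type end of the array. Pcdhgb6 read 17.5 and 23.5 CPM in quiescent McSC and 8.78, 9.37 and 7.86 CPM in melanocytes (-1.24 ± 0.20, edgeR adjusted p = 0.0031). Pcdhgb7 read 14.1 and 17.5 CPM against 6.51, 5.38 and 5.83 CPM (-1.42 ± 0.21, edgeR adjusted p = 0.00197). Both genes were separated by more than the spread in either group, and both remained called under every alternative that was run. Pcdhga11 read 8.77 and 9.68 CPM against 4.76, 4.98 and 3.63 CPM (-1.04 ± 0.24, edgeR adjusted p = 0.0115), and its call was lost without quiescent McSC replicate 1 (edgeR adjusted p = 0.053) or 2 (0.0805).

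The 6 gamma A and B genes that were not called were Pcdhga3, Pcdhgb1, Pcdhga6, Pcdhga7, Pcdhga9 and the transcribed pseudogene Pcdhgb8. Pcdhga3 showed the smallest difference, at 2.53 and 2.41 CPM in quiescent McSC and 3.28, 2.11 and 1.18 CPM in melanocytes. Its melanocyte libraries lay on both sides of the quiescent McSC values (-0.16 ± 0.46), and its sign turned with library size only (0.07) and without melanocyte replicate 3 (0.13). Pcdhga9 was the nearest to a call (edgeR adjusted p = 0.0561), with 5.76 and 6.62 CPM against 3.38, 4.30 and 2.35 CPM.

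Ratios within a library do not depend on how libraries are scaled to each other. Per count of Pcdhgc3 there were 1.01 and 1.15 counts of gamma A and B genes in quiescent McSC, and 0.555, 0.479 and 0.405 in melanocyte replicates 1 to 3. Thus Pcdhgc3 took 49.5% (exact 95% binomial interval 48.7 to 50.3) and 46.2% (45.6 to 46.8) of gamma cluster counts in the quiescent McSC libraries. It took 63.6% (62.4 to 64.7), 67.1% (66.2 to 67.9) and 70.8% (69.1 to 72.3) in the melanocyte libraries. The means were 47.9% ± 2.32 (SD, n = 2) and 67.1% ± 3.59 (n = 3), and the groups did not overlap. Such intervals hold counting error alone, because PCR copies were not marked and reads need not be separate molecules. They also leave out how reads of shared exons were divided, which is not known here. Of the exon bases of Pcdhgc3, 45.2% are shared with other members, so its share of the cluster is uncertain to that extent. All 22 gamma genes had counts in every library, also after all libraries were thinned to 17512381 counts.

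The levels of the gamma A and B genes were correlated in every pair of libraries, although their order was not the same in each. Across the 19 genes, Pearson's r of log2 CPM was 0.958 between the quiescent McSC libraries, 0.771 to 0.867 among the melanocyte libraries, and 0.765 to 0.924 between the groups. The genes are not independent replicates, and the points share a locus and the annotation's exon lengths, so these values are descriptions. Pcdhgb6 led the 19 in all 5 libraries. Each library pools many cells, so these profiles say nothing about the choice of isoforms in a single cell.

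**Figure D3:**
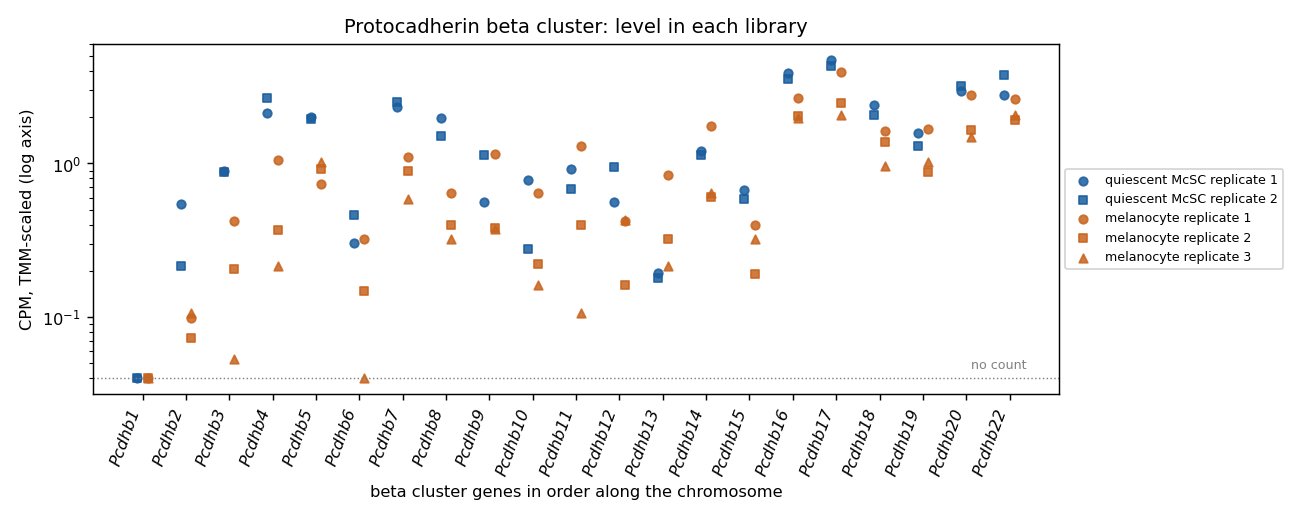
Level of each beta gene (CPM, TMM-scaled, log axis) in order along the chromosome, with 1 point per library; blue is quiescent McSC, orange melanocyte, the symbol shape gives the replicate, and the dotted line marks libraries with no count. From Pcdhb2 to Pcdhb8 the colours are apart except at Pcdhb6, and orange circles (melanocyte replicate 1) tend to lie highest among the orange points.

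Beta genes summed to 33.4 and 33.4 CPM in quiescent McSC and to 26.3, 15.6 and 14.2 CPM in melanocytes. The mean was 1.79-fold higher in quiescent McSC (33.4 ± 0.0669, SD, n = 2, against 18.7 ± 6.61, n = 3). Melanocyte replicate 1, the library with the highest fibroblast sum and the lowest lineage sum, also had the highest beta sum of its group. It was the highest of the melanocyte libraries in 17 of 20 tested beta genes, against 7 of 19 gamma A and B genes; the part of those other RNAs in the beta values was not tested. Without it the log2 ratio of the sums was -1.17 in place of -0.84.

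Of 20 tested beta genes 6 were called higher in quiescent McSC (Pcdhb2, Pcdhb3, Pcdhb4, Pcdhb5, Pcdhb7 and Pcdhb8) and 14 were not called. The share called is near the 26.2% of all tested genes called in that direction. Among the 6, Pcdhb2 passed the filter on low counts only through the quiescent McSC libraries. DESeq2 called 5 and limma-voom 6 higher in quiescent McSC, and none of the 3 tools called a beta gene higher in melanocytes or found one at an unadjusted p under 0.05. A negative log2 fold change was seen in 19 of the 20, with a median of -0.74. These calls depended on single libraries and on scaling. With library size only 2 were called. Leaving out quiescent McSC replicate 1 left 0 calls, quiescent McSC replicate 2 or melanocyte replicate 2 left 2, and melanocyte replicate 3 left 3, whereas 9 were called when melanocyte replicate 1 was left out.

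Pcdhb4 showed the largest beta difference, at 2.13 and 2.67 CPM in quiescent McSC and 1.060, 0.366 and 0.214 CPM in melanocytes (-2.09 ± 0.64, edgeR adjusted p = 0.0325). Pcdhb2 read 0.545 and 0.214 CPM against 0.0986, 0.0733 and 0.107 CPM (-2.04 ± 0.63, edgeR adjusted p = 0.0343). It passed the filter on low counts only through the quiescent McSC libraries, which favours a difference in that direction, so its fit is a description. Pcdhb8 read 1.97 and 1.5 CPM against 0.641, 0.396 and 0.321 CPM (-1.91 ± 0.43, edgeR adjusted p = 0.0104). In each of these genes, which encode adhesion proteins without the constant cytoplasmic part, the melanocyte libraries lay below both quiescent McSC libraries. The call of Pcdhb8 was lost only without quiescent McSC replicate 1 (edgeR adjusted p = 0.0694), whereas leaving out any library other than melanocyte replicate 1 ended the call of Pcdhb4 (edgeR adjusted p 0.0609 to 0.139), as did library size only (0.0575). Pcdhb2 was not called by DESeq2 (adjusted p = 0.0801), by limma-voom (0.0642) or by edgeR with library size only (0.0538). Its edgeR call was also lost without quiescent McSC replicate 1 (log2 fold change -1.242, adjusted p = 0.234) and without melanocyte replicate 2 (0.102) or 3 (0.0617).

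All 6 called beta genes came from the first part of the array. This division was chosen after the values were seen and was not tested. Pcdhb1 to Pcdhb8 summed to 10.2 and 10.2 CPM in quiescent McSC and 4.39, 3.00 and 2.30 CPM in melanocytes, a 3.15-fold difference in the means. Pcdhb9 to Pcdhb22 summed to 23.2 and 23.2 CPM against 21.9, 12.6 and 11.9 CPM, a 1.5-fold difference. Within a library, the first 8 genes made up 30.5% of beta counts in both quiescent McSC libraries and 16.7%, 19.2% and 16.2% in the melanocyte libraries. Among the 13 genes of the second part edgeR called 0, with 1 at an unadjusted p under 0.05, and DESeq2 and limma-voom called 1 each.

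The most abundant beta genes by CPM were Pcdhb17, Pcdhb16, Pcdhb22 and Pcdhb20, all in the second part. Pcdhb17 read 4.73 and 4.32 CPM in quiescent McSC and 3.97, 2.48 and 2.08 CPM in melanocytes (-0.66 ± 0.35, edgeR adjusted p = 0.153). Pcdhb16 read 3.88 and 3.56 CPM against 2.66, 2.05 and 1.98 CPM (-0.73 ± 0.29, edgeR adjusted p = 0.0714), and DESeq2 (adjusted p = 0.0251) and limma-voom (0.0467) called it. Pcdhb22 read 2.79 and 3.78 CPM against 2.61, 1.91 and 2.08 CPM. In these genes the melanocyte libraries lay below quiescent McSC in every case, with melanocyte replicate 1 the closest, and without that library edgeR called Pcdhb17 (adjusted p = 0.0254), Pcdhb16 (0.0403) and Pcdhb20 (0.036). Per kilobase of exon, the level of Pcdhb17 was 0.971 CPM in quiescent McSC against 0.610 CPM in melanocytes, far under the 25.1 and 24.4 CPM of Pcdhgc3.

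Pcdhb13 was the only beta gene with every melanocyte library above quiescent McSC, at 0.192 and 0.179 CPM against 0.838, 0.323 and 0.214 CPM. Its difference was not called (1.33 ± 0.68, edgeR adjusted p = 0.141) and its highest library was again melanocyte replicate 1. Pcdhb1 had no count in any library, which allows up to 0.0172 CPM over the quiescent McSC libraries and 0.0235 CPM over the melanocyte libraries (3 counts over a group).

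**Figure D4:**
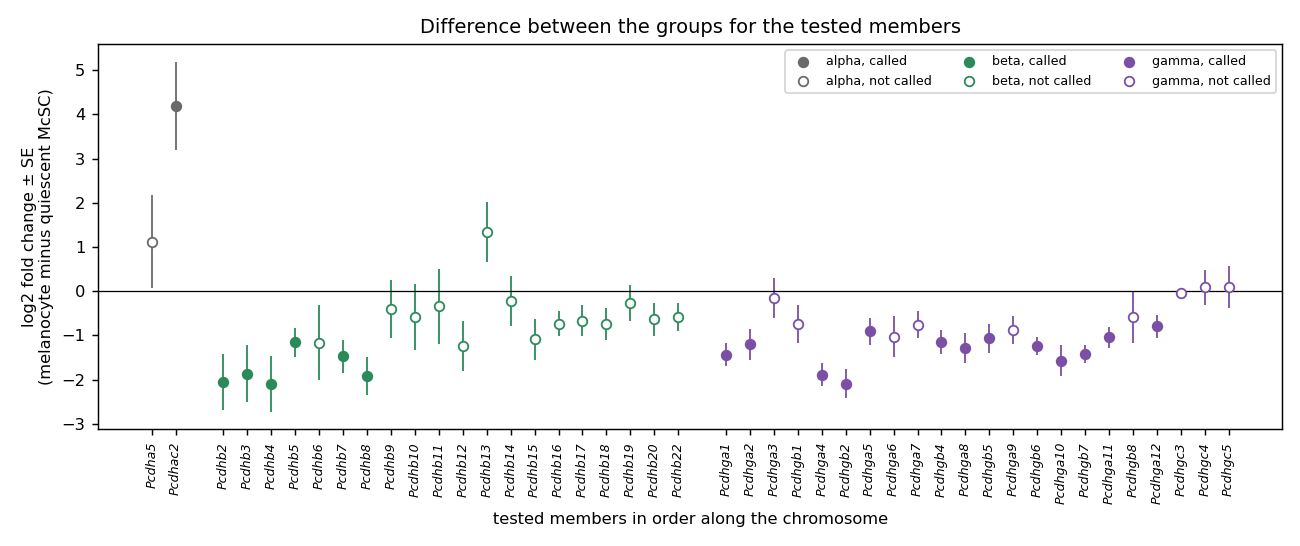
Log2 fold change (melanocyte minus quiescent McSC) with its SE for the 44 tested members in order along the chromosome; grey is alpha, green beta, purple gamma, and filled points were called by edgeR. The filled beta points lie from Pcdhb2 to Pcdhb8, and the gamma values run below 0 until Pcdhga12 and lie near 0 for the C-type genes.

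Alpha genes were barely detected in either group. Their 14 genes together held 30 and 57 counts in the quiescent McSC libraries and 53, 36 and 8 counts in the melanocyte libraries. As summed CPM this was 0.481 and 0.509 against 1.31, 0.528 and 0.428, and the groups overlapped. Without melanocyte replicate 1 the log2 ratio of the sums turned from 0.61 to -0.05. After thinning to equal depth 3 to 7 of the 14 genes had a count in a library, and Pcdha1 and Pcdha6 had none in any library as deposited.

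Pcdhac2, a C-type alpha gene, was the 1 member called higher in melanocytes. It passed the filter on low counts only through the melanocyte libraries, which favours a difference in that direction, so its fit is a description and no support. It held 2 counts in quiescent McSC and 31 in melanocytes, or 0 and 0.0178 CPM against 0.370, 0.205 and 0.107 CPM. From these counts the ratio was 21.2 with an exact 95% interval of 5.40 to 183, which covers counting error only. The fitted log2 fold change was 4.2 ± 1 (edgeR adjusted p = 0.0132), the call was lost without quiescent McSC replicate 1 (edgeR adjusted p = 0.0676), and without melanocyte replicate 1 or 2, or after thinning, the gene did not pass the filter. Pcdhac1, the other C-type alpha gene, had 5 counts in quiescent McSC replicate 1 and none in the other libraries.

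Among the alternative alpha genes only Pcdha5 passed the filter. It read 0 and 0.152 CPM in quiescent McSC and 0.197, 0.161 and 0.214 CPM in melanocytes (1.12 ± 1.05, edgeR adjusted p = 0.398). Like Pcdhac2, Pcdha5 passed only through the melanocyte libraries, which favours a difference in that direction, so its fit is a description. Its value rested on single libraries: it was 0.296 without quiescent McSC replicate 1, and 6.169 and called without replicate 2 (edgeR adjusted p = 0.0299), where the remaining quiescent McSC library had no count. Pcdha3 read 0.305 and 0.125 CPM against 0, 0.0880 and 0 CPM, and Pcdha10 read 0 and 0.0446 CPM against 0.197, 0 and 0 CPM. Pcdha4 held 8 counts in melanocytes, all of them in replicate 1, against 2 in quiescent McSC. The ratio of the counts was 5.47 with an exact 95% counting interval of 1.09 to 52.9. That interval leaves out the spread between libraries, so it shows no difference between the groups. Each of these values rests on at most 19 counts in a library.

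Markers of cell types that could carry protocadherin RNA also differed between the groups. Over all tested genes, 29.1% were called toward melanocytes and 26.2% toward quiescent McSC. Several markers with few or no counts in quiescent McSC, such as Krt34 and Cldn5, passed the filter only through melanocytes. Of 12 neuron markers, 4 were called higher in melanocytes and 1 in quiescent McSC, 3 were not called and 4 were not tested. They summed to 7.60 and 9.22 CPM in quiescent McSC and 14.5 to 28.2 CPM in melanocytes, most of it Tubb3. The neurofilament genes Nefl and Nefm had no count in melanocytes and 4 and 10 counts in quiescent McSC. Of 10 Schwann cell markers 4 were higher in each direction and 2 were not called, with sums of 850 to 1072 CPM in quiescent McSC and 205 to 273 CPM in melanocytes. Egr2 (362.5 ± 158 CPM) and Pmp22 (237 ± 4.07 CPM) were among the most abundant of them in quiescent McSC. Of 16 tested hair follicle markers 15 were called toward melanocytes and 1 toward quiescent McSC, with sums of 172 to 174 CPM in quiescent McSC and 4072 to 5713 CPM in melanocytes, and Krt34 had no count in quiescent McSC. Keratinocyte markers went in both directions, with 7 of 14 higher in melanocytes and 6 in quiescent McSC, and sums of 3559 to 4876 CPM beside 4558 to 5987 CPM. Of the muscle and pericyte markers 10 of 11 were higher in melanocytes (81.3 to 85.3 CPM beside 151 to 321.5 CPM). The other, Cspg4, was called toward quiescent McSC and made up most of the sum there, at 78.8 and 75.3 CPM. Of the endothelial markers 9 of 10 were higher in melanocytes, with Cldn5 at no count in quiescent McSC. The other, Esam, was called toward quiescent McSC, where it made up most of the endothelial sum, at 8.13 and 10.5 CPM. Of the immune markers 10 of 14 were called toward melanocytes and 2 toward quiescent McSC (14.4 to 15.5 CPM beside 54.5 to 102 CPM), and of 4 tested Merkel cell markers 2 were higher in melanocytes (1.38 to 2.42 CPM beside 4.08 to 15.3 CPM). The part of these cell types in the protocadherin values was not tested.

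The non-clustered protocadherins, which are encoded elsewhere and do not share the promoter choice, were called in both directions. Of 12 such genes 4 were called higher in melanocytes, near the 29.1% of all tested genes. In quiescent McSC 1 was called higher, where 26.2% of all tested genes were, and 7 were not called. The median log2 fold change of the list was 0.47. Pcdh7 read 33.8 and 40.1 CPM in quiescent McSC and 127, 162 and 127 CPM in melanocytes (1.91 ± 0.17, edgeR adjusted p = 0.000321), so that no library of one group reached the range of the other. Pcdh19, a homophilic adhesion gene of the delta type, read 4.81 and 2.51 CPM against 27.7, 23.3 and 31.0 CPM (2.91 ± 0.34). Pcdh18 read 0.978 and 0.544 CPM against 13.3, 4.49 and 5.24 CPM, and its call was lost without quiescent McSC replicate 2 (edgeR adjusted p = 0.0527). Pcdh12, an endothelial protocadherin, read 0.112 and 0.00893 CPM against 0.838, 0.894 and 0.855 CPM. It passed the filter only through the melanocyte libraries, which favours a difference in that direction, so its call is a description. Endothelial markers summed to 10.6 and 12.9 CPM in quiescent McSC, most of it Esam, and to 29.2 to 61.9 CPM in melanocytes. The 1 gene called higher in quiescent McSC was Pcdh10, at 2.31 and 3.25 CPM against 0.690, 0.279 and 0.0535 CPM; no gene of the list was called in that direction when quiescent McSC replicate 1 or 2 or melanocyte replicate 2 was left out.

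Of 26 genes for proteins that act on the clustered protocadherin promoters, 12 were called higher in melanocytes and 4 in quiescent McSC. The other 10 were not called (median 0.23). Over all tested genes, 29.1% were called toward melanocytes and 26.2% toward quiescent McSC. Hells, a chromatin remodeller needed for DNA methylation, read 10.1 and 7.50 CPM in quiescent McSC and 108, 105 and 117 CPM in melanocytes (3.65 ± 0.18, edgeR adjusted p = 6.4e-05). Dnmt1, which copies methylation to new DNA strands, read 102 and 104 CPM against 349, 307 and 318 CPM (1.66 ± 0.12). Tet3, an enzyme that oxidises methylated cytosine, read 58.3 and 70.3 CPM against 246, 212 and 208 CPM (1.79 ± 0.15). All 3 were separated by several times the spread within a group.

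Smchd1, a chromatin protein known to keep the clusters silent in several tissues, read 89.5 and 79.9 CPM in quiescent McSC and 138.5, 149 and 147 CPM in melanocytes (0.77 ± 0.11, edgeR adjusted p = 0.0017). Ctcf, which binds the promoters and enhancers, read 137 and 136 CPM against 187, 185 and 177 CPM (0.43 ± 0.10, edgeR adjusted p = 0.0127). The call of Ctcf was lost without quiescent McSC replicate 1 (edgeR adjusted p = 0.0816) or 2 (0.0861). Dnmt3b, a methyltransferase that sets methylation at these promoters in embryos, stood at 10.9 and 12.3 CPM against 10.1, 10.1 and 11.5 CPM and was not called (-0.13 ± 0.19, or 0.09 with library size only). Without quiescent McSC replicate 2, 7 of the 26 genes were called higher in melanocytes.

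Of 28 genes for binding partners, downstream effectors and the proteases that cleave protocadherins, 5 were called higher in melanocytes and 7 in quiescent McSC. The other 16 were not called (median -0.11). Over all tested genes, the shares called in these directions were 29.1% and 26.2%. Among the called genes Nlgn1 passed the filter only through quiescent McSC and Wasf3 only through melanocytes, so their calls are descriptions. Ret, a receptor tyrosine kinase found in complexes with protocadherins, read 0.417 and 0.955 CPM in quiescent McSC and 14.3, 11.3 and 7.59 CPM in melanocytes (3.99 ± 0.51, edgeR adjusted p = 0.00123). Wasf1, an actin regulator of the WAVE complex, read 5.13 and 5.03 CPM against 15.8, 13.8 and 12.8 CPM (1.48 ± 0.20). Abi1, another WAVE complex subunit, differed in the other direction, at 173 and 179 CPM against 93.2, 107 and 103 CPM (-0.80 ± 0.11). So did the Src family kinase gene Fyn, at 81.1 and 86.3 CPM against 33.8, 40.1 and 43.7 CPM (-1.10 ± 0.14). Leaving out quiescent McSC replicate 1 or 2 left 3 calls in each direction, and leaving out melanocyte replicate 2 left 3 higher in melanocytes.

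Genes that flank or separate the clusters did not share one direction. Of 16 such genes 4 were called higher in melanocytes, 4 in quiescent McSC and 8 were not called (median -0.05). Over all tested genes, 29.1% were called toward melanocytes and 26.2% toward quiescent McSC. Taf7, a subunit of the general transcription factor TFIID between the beta and gamma clusters (37640491 to 37644204), read 30.5 and 34.3 CPM in quiescent McSC and 27.7, 34.2 and 27.1 CPM in melanocytes. Its groups overlapped (-0.12 ± 0.15, edgeR adjusted p = 0.517, or 0.09 with library size only). Slc25a2, a mitochondrial carrier gene in the same interval (37637378 to 37638723), stood between 0.160 and 0.205 CPM in all libraries. Diaph1, a formin gene just beyond the gamma cluster (37843601 to 37935622), read 71.6 and 74.1 CPM against 60.8, 53.5 and 48.5 CPM (-0.42 ± 0.13, edgeR adjusted p = 0.0294), and its call was lost with library size only (0.274), and when any library but melanocyte replicate 1 was left out (0.0705 to 0.139).

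The largest difference on the alpha side of the locus was that of Cd14, a co-receptor of innate immunity, at 174 and 175 CPM in quiescent McSC and 2.98, 2.20 and 2.46 CPM in melanocytes (-6.10 ± 0.16). Arap3, a regulator of small GTPases beyond the gamma side, read 0.241 and 0.303 CPM against 4.34, 3.00 and 1.87 CPM (3.49 ± 0.51). Hars, the histidyl-tRNA synthetase gene, read 64.2 and 57.3 CPM against 88.3, 97.1 and 88.9 CPM (0.59 ± 0.11), and Tmco6 read 28.3 and 30.7 CPM against 19.6, 14.5 and 14.8 CPM (-0.85 ± 0.18). These neighbours were thus higher in either group, and the calls of Hars (edgeR adjusted p = 0.0501) and Tmco6 (0.0657) were lost without quiescent McSC replicate 2, where 1 of the 16 genes was called in each direction. Without quiescent McSC replicate 1 or melanocyte replicate 2, 2 were called higher in melanocytes.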

How the data were processed

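The deposited table holds whole-number counts per gene and library, with no normalization or pooling. Whether the authors counted reads or rounded estimated counts is not given; of rounded estimates, the exact counting intervals would be approximate. The submitters' processing notes name the build mm10 and the tools Salmon 0.8.2 and STAR 2.5.2a without roles, and the gene counter is not given in the sources used here. Entrez identifiers were matched to RefSeq symbols of GRCm38.p6 (24045 of 24100 matched); exon lengths came from GENCODE M21. Pcdhb21 was not analysed here. All 5 libraries entered 1 edgeR 4.0.16 fit (R 4.3.3; filterByExpr, TMM, glmQLFTest, two-sided, no covariates), with SE derived from F. The procedure was tested on simulated data in which few genes changed, none of them of low level, and all genes had the same dispersion. Those settings differ from these data, so the simulation says nothing about members with low counts. CPM values use TMM library sizes; cluster sums have no test.

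The labels call the libraries biological replicates of pooled males. Replicate numbers were not taken as pairs, because the groups came from mice of different age and reporter strain. Deviations of same-numbered libraries correlated at 0.04 and -0.055. The deviations of the 2 quiescent McSC libraries mirror each other, so these correlations cannot settle whether samples are paired. Members and lists were chosen with earlier results of these data known. Named were the 4 most abundant and up to 3 most changed called members per cluster and direction, C-type genes, up to 4 genes of smallest p per list, and 6 preset genes; others were named after their values were seen, and some genes are not reported here. Alternatives were other size factors, library size only, other filters, DESeq2 1.42.0, limma 3.58.1 (voom), a replicate block, thinning, and leaving out each library.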

Additional observations from a re-analysis of the deposited data

How the results depend on the processing

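The gamma A and B sum stayed lower in melanocytes in every setting run. With library size only its log2 ratio was -0.998, that of the whole gamma cluster -0.310 (-0.531 otherwise) and that of the C-type sum 0.179. Without Pcdhgc3, the whole gamma ratio was -1.199 and the C-type ratio 0.065. Leaving out a library moved the C-type ratio between -0.085 and 0.034 and the alpha ratio between -0.051 and 0.89. Over the 2 alpha genes that passed the filter, the alpha ratio was 2.302. Both passed only through the melanocyte libraries, so this is a direction that the filter favours. Members called higher in quiescent McSC numbered 13 gamma and 6 beta genes; with library size only 2 beta genes were called. With the replicate number as a block 6 gamma genes and 1 beta gene were called, and 8 of the 20 called members kept their call. Leave-one-out counts ran from 6 to 13 (gamma), 0 to 9 (beta) and 0 to 2 (alpha, higher in melanocytes); the alpha count was 0 with a filter of at least 1 CPM in 2 libraries or after thinning. For the lists they ran from 0 to 2 (non-clustered, quiescent McSC), 7 to 12 (promoter regulators, melanocytes), 3 to 10 and 3 to 5 (partners, quiescent McSC and melanocytes), and 1 to 4 in each direction (neighbours).

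Log2 fold changes of uncalled genes turned sign with library size only for Pcdhb14 (0.022), Pcdhga3 (0.071), Pcdhgc3 (0.177), Taf7 (0.094) and Dnmt3b (0.092), under the block for Pcdhga3 (0.089), and after thinning for Pcdhb11 (0.042). Signs also turned when a library was left out, with leave-one-out ranges of -1.168 to 0.198 for Pcdhb9, -1.368 to 0.33 for Pcdhb10, -1.434 to 0.084 for Pcdhb11, -0.918 to 0.046 for Pcdhb14, -0.542 to 0.126 for Pcdhga3, -0.113 to 0.041 for Pcdhgc3, -0.093 to 0.239 for Pcdhgc4, -0.238 to 0.494 for Pcdhgc5 and -0.105 to 0.183 for Slc25a2. The cause was not tested. Depth limits the alpha genes, which held 8 to 57 counts per library.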
